A study of Mus musculus with 33 samples.

Results

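Svs5, Svs6, Eppin, 9230104L09Rik and Klk1b24, 5 genes of male reproductive-tract type, were followed through mouse ovary libraries with and without functional Fshb. They are 5 of the 54347 gene identifiers in the deposited table. They were picked by symbol because their values were high in libraries labelled as Fshb knockout, so every contrast of a knockout group with another group is given below as a description and without a test. The series holds 33 RNA-seq libraries of ovary poly(A) RNA in 9 groups and 3 experiments, which set ovaries lacking Fshb beside controls, a transgenic group and cycle stages. Fshb encodes the specific subunit of follicle-stimulating hormone, made by the pituitary.

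Experiment 1 had the genotypes WT, Fshb(+/-) and Fshb(-/-), with 3 libraries of each. Experiment 2 set 4 Fshb(-/-) libraries beside 4 of the genotype Fshb(-/-) HFSHB, which carry the same null genotype together with the transgene HFSHB, a human FSHB gene used to restore the hormone. Experiment 3 had 4 WT libraries for each stage code, namely DE, PE and E, and 4 libraries whose stage field reads KO (anestrus). The genotype field of these last 4 reads WT although their titles and stage field read KO, so they are called KO (anestrus) here. The sources used here give no strain, age, transgene promoter or number of animals behind a library. Nothing in the labels says that replicates came from separate animals, and p-values therefore measure only the spread between these libraries, which may be technical.

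The seminal vesicle is an androgen-dependent gland that secretes most of the seminal fluid, and Svs5 and Svs6 encode small semenogelin-related proteins of that fluid. Eppin encodes a sperm-coating protease inhibitor that joins a whey acidic protein (WFDC) domain to a Kunitz domain and binds semenogelin. 9230104L09Rik, called Cstdc2 by RefSeq, encodes a cystatin-domain protein, a family of cysteine protease inhibitors with many members in the epididymis. Klk1b24 encodes a glandular kallikrein, a serine protease of the family to which the enzymes that liquefy semen belong. None of these genes is a textbook marker of an ovarian cell type.

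Of the 5 genes, 4 lay on chromosome 2 (GRCm38, GENCODE M21). Svs6 spanned 164316751 to 164318453 on the plus strand, and Svs5 followed at 164332740 to 164334396, 14.3 kb further on. Eppin lay at 164588343 to 164593594 on the minus strand, 254 kb beyond Svs5. 9230104L09Rik lay far away at 148846711 to 148865038 on the minus strand, in a cystatin cluster 15452 kb before Svs6. Klk1b24 lay in the kallikrein cluster on chromosome 7, at 44188236 to 44192455 on the plus strand. All 5 are annotated as protein coding.

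The start regions of the 5 genes are shown because the genes were high together in knockout libraries while, apart from the Svs5 and Svs6 pair, they belong to different families. Each window runs from 250 bases before to 50 bases after the start site given by RefSeq (GRCm38.p6), 5′ to 3′ on the gene's own strand. The windows are chr2:164332515-164332814 (plus) for Svs5, chr2:164316501-164316800 (plus) for Svs6, chr2:164593522-164593821 (minus) for Eppin, chr2:148850885-148851184 (minus) for 9230104L09Rik and chr7:44187986-44188285 (plus) for Klk1b24. The window of 9230104L09Rik lies inside the longer gene that GENCODE annotates. In the first 2 sequences, capitals mark bases that differ between Svs5 and Svs6 or lie outside their aligned stretch. In the other 3, capitals mark a match to AGAACA or its reverse complement TGTTCT.
Svs5: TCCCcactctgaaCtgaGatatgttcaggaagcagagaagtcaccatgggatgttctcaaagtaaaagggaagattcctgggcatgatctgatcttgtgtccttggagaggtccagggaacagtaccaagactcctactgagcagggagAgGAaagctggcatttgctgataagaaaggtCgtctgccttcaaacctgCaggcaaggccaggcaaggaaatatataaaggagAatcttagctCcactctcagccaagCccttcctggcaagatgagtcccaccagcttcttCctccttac
Svs6: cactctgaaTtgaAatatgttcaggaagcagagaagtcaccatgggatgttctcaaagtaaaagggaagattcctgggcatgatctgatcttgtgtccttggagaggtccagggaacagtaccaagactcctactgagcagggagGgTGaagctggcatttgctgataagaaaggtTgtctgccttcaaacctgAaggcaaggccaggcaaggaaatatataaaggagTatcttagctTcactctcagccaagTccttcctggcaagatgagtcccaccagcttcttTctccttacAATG
Eppin: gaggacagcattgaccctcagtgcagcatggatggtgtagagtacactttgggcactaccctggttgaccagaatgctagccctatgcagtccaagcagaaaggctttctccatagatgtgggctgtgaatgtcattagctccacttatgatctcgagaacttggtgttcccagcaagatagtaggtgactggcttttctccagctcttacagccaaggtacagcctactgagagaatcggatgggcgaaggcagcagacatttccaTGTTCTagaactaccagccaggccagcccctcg
9230104L09Rik: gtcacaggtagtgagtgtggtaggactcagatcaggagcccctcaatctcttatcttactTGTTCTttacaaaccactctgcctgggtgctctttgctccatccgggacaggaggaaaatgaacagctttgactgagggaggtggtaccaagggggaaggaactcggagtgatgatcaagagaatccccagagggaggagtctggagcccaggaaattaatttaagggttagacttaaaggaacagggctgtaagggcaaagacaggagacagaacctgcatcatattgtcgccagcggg
Klk1b24: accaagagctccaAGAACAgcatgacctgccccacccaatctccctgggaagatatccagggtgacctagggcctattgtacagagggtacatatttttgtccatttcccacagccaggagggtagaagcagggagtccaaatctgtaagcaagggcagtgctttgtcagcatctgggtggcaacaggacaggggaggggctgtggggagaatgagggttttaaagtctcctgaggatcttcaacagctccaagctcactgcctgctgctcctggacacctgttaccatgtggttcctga

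The Svs5 and Svs6 windows were identical at 285 of 296 aligned bases (96.3%), with 11 mismatches and no gap. Their longest transcripts matched at only 347 of 521 aligned bases (66.6%). The start regions of the pair were thus much more alike than the transcripts they precede.

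The letters AGAACA, an arm of the palindrome bound by the glucocorticoid and progesterone receptors, occurred on either strand in 5 of 5 windows and in 19% of 32851 RefSeq windows of the same length. Because the Svs5 and Svs6 windows are nearly the same sequence, their matches are not separate occurrences. Counted from the start site, the match lay at -199 to -194 in Svs5, at -203 to -198 in Svs6 and at -190 to -185 in 9230104L09Rik. It lay at -237 to -232 in Klk1b24 and, after the start site, at 18 to 23 in Eppin. CAAGGTCA, the type of site bound by steroidogenic factor 1, was found in 0 of 5 windows and in 1.56% of all windows. TGACGTCA, the cyclic AMP response element, was found in 0 of 5 and in 1.79%. AGATAA, a spelling of the site of the factor family named for its core letters, was found in 1 of 5 windows and in 11.2% of all windows. The 1 window was that of 9230104L09Rik, where it did not overlap the first motif. Other spellings of this site, such as the TGATAA in the Svs5 and Svs6 windows, were not searched. These matches describe letters and not binding.

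Library totals ran from 13587252 to 16931710 counts in experiment 1, from 19633256 to 23700051 in experiment 2 and from 10085367 to 15925103 in experiment 3. Levels are given on the counts-per-million scale (CPM), relative to the library total. A count of 0 allows up to 3 counts, or 0.127 to 0.297 CPM depending on the library, a limit that, like all intervals given here, reflects counting error alone. The targeted gene Fshb went against its labels: it had 0 to 1 counts in WT libraries of experiment 1, 68 to 82 in Fshb(-/-) libraries, 119 to 184 in Fshb(-/-) libraries of experiment 2 and 90 to 114 in KO (anestrus). Fshb counts reached 43 to 106 in Fshb(+/-), 221 to 431 in Fshb(-/-) HFSHB, 60 to 198 in DE, 0 to 51 in PE and 0 to 170 in E. Every statement on a group named by its Fshb genotype is therefore a statement on libraries labelled as such. A list of 12 genes of oviduct epithelium, a tissue next to the ovary, set some libraries apart. Its summed level was 3352 to 7653 CPM in 8 of the 12 stage libraries and 12.4 to 25.8 CPM in the other 4 (DE replicate 3 and E replicates 1, 2 and 4). It stood at 1526 CPM in Fshb(+/-) replicate 3, at 610 CPM in an HFSHB library and at 448 and 169 CPM in 2 Fshb(-/-) libraries of experiment 2, and at most 76.8 CPM in each of the other libraries.

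In every experiment all 5 genes were higher in each knockout library than in any other library, which makes 15 of 15 gene and experiment pairs. Such a separation without overlap was found for 12.9% of tested genes in experiment 1, 18.9% in experiment 2 and 8.04% in experiment 3. The mean of the knockout group was also at least 4 times that of each other group in 15 of 15. No share over all genes was worked out for this difference in means. Since the genes were chosen for being high in knockout libraries, nothing is read from either count. All 5 genes passed the filter on low counts in each experiment, which they could do through the knockout group alone. In whole ovary, more cells of a type and more RNA per cell cannot be told apart.

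**Figure D1:**
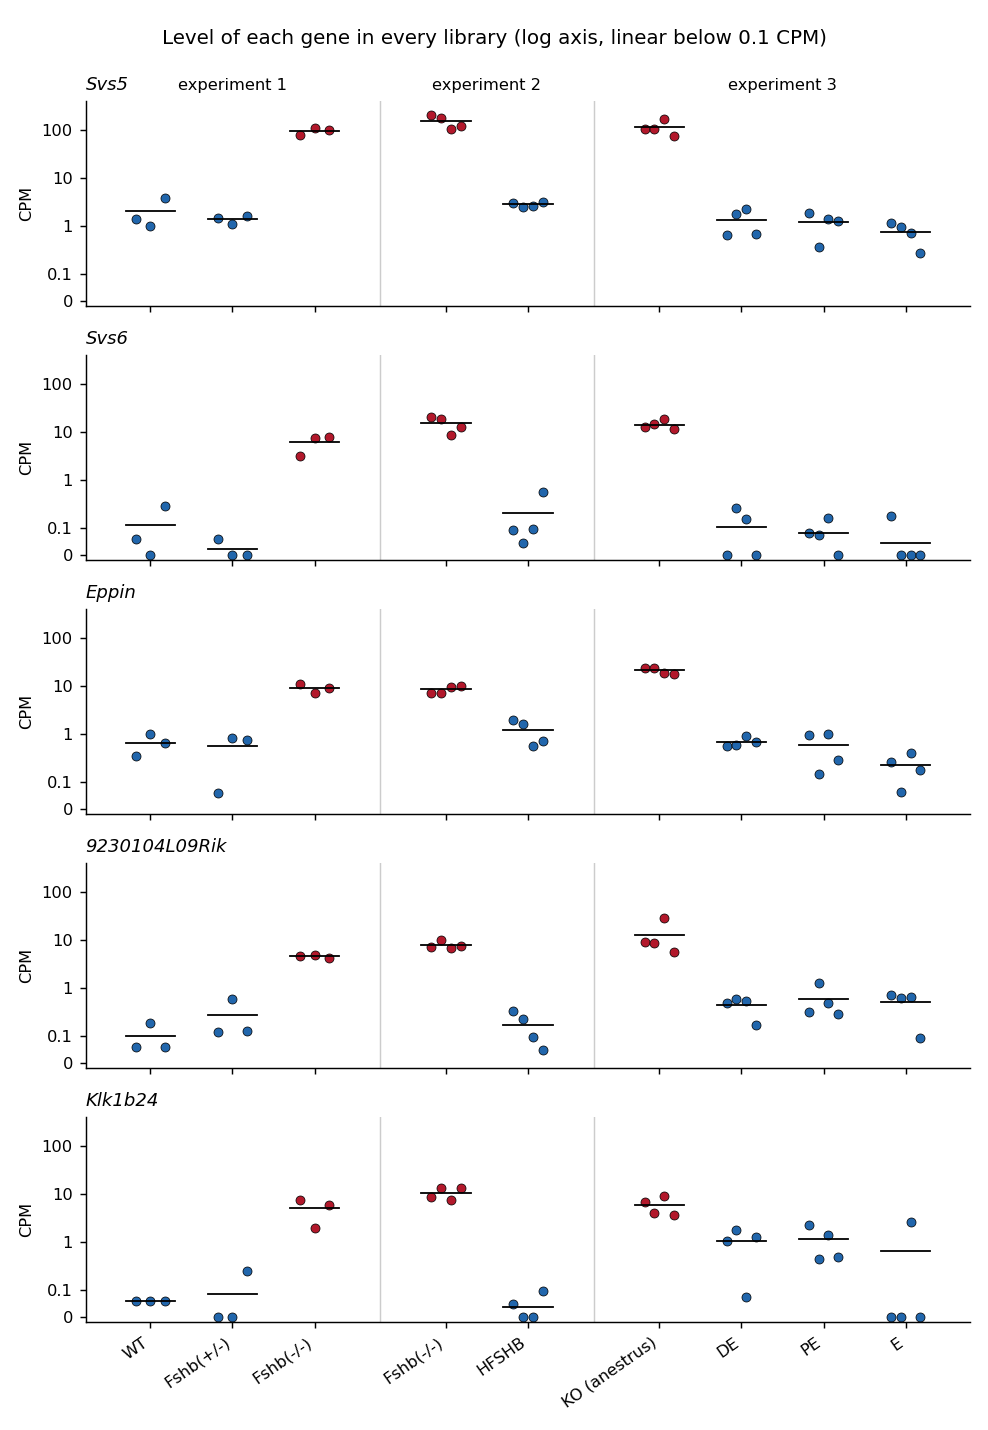
Level of Svs5, Svs6, Eppin, 9230104L09Rik and Klk1b24 in each of the 33 libraries, in CPM on a log axis that is linear below 0.1, by group. Each point is a library, red for groups labelled as Fshb knockout and blue for the others, and each bar is the group mean. Svs5 sits between 75.6 and 211 CPM in the red groups and at 3.84 CPM or less in the blue ones, and Klk1b24 shows the narrowest gap, in experiment 3.

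Svs5, a seminal vesicle secretory protein gene, stood at 80.7, 109 and 102 CPM in the Fshb(-/-) libraries of experiment 1. It stood at 1.38, 0.988 and 3.84 CPM in WT and at 1.47, 1.11 and 1.65 CPM in Fshb(+/-). The 3 knockout libraries were close to one another, while WT replicate 3 was above the other WT and Fshb(+/-) libraries. In experiment 2, Svs5 stood at 211, 176, 106 and 120 CPM in Fshb(-/-) and at 3.06, 2.48, 2.65 and 3.23 CPM in Fshb(-/-) HFSHB. Set beside experiment 1, a separate experiment, the libraries with the transgene lay below WT replicate 3 and above every other WT and Fshb(+/-) library. In KO (anestrus) Svs5 stood at 106, 103, 173 and 75.6 CPM, in DE at 0.657, 1.77, 2.28 and 0.694, in PE at 1.87, 0.375, 1.42 and 1.29, and in E at 1.15, 0.942, 0.724 and 0.276. Group means with SD were 97.3 ± 14.8 (n = 3), 153 ± 48.9 (n = 4) and 114 ± 41.6 CPM (n = 4) in the knockout groups of experiments 1, 2 and 3, and 0.773 ± 0.375 CPM (n = 4) in E, the lowest group. As a ratio of summed counts per summed total, with the 95% exact counting interval, Svs5 was 46.2 times (38.1 to 56.7) higher in Fshb(-/-) than in WT. The ratio was 53.3 (46.9 to 60.7) against Fshb(-/-) HFSHB and 101 (86.6 to 118) in KO (anestrus) against the 12 stage libraries.

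Svs6, the neighbour of Svs5 and a relative of it, showed the same separation. It stood at 3.22, 7.65 and 7.76 CPM in Fshb(-/-) of experiment 1, at 20.7, 18.9, 8.63 and 12.6 CPM in Fshb(-/-) of experiment 2 and at 12.7, 14.7, 18.6 and 11.5 CPM in KO (anestrus). In the other groups Svs6 was at or near the limit of detection. The WT libraries held 1, 0 and 5 counts, the Fshb(+/-) libraries 1, 0 and 0, and the HFSHB libraries 2, 1, 2 and 12. The 12 stage libraries held 0 to 4 counts each, and 6 in sum in DE, 4 in PE and 2 in E. The ratio of summed counts per total was 50.8 (23 to 140) against WT and 290 (51.6 to 11485) against Fshb(+/-), where a single count was found. It was 75.2 (46.8 to 130) against HFSHB and 181 (103 to 351) against all stage libraries. Of the counts of Svs5 and Svs6 together, Svs6 made up 5.82% ± 1.74 (SD, n = 3) in the Fshb(-/-) libraries of experiment 1, 8.92% ± 0.995 (n = 4) in those of experiment 2 and 11.5% ± 1.61 (n = 4) in KO (anestrus). The ranges were 3.84 to 7.07%, 7.5 to 9.69% and 9.68 to 13.2%, so the first group did not overlap those of experiments 2 and 3. Experiment and knockout group cannot be told apart in this comparison.

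Eppin, the protease inhibitor that binds semenogelin, stood at 23.7, 23.8, 19.2 and 18.2 CPM in KO (anestrus), at 11.2, 7.36 and 9.13 CPM in Fshb(-/-) of experiment 1 and at 7.13, 7.34, 9.6 and 10.2 CPM in Fshb(-/-) of experiment 2. Unlike Svs6, Eppin was detected in all of the other libraries. It stood at 0.359, 0.988 and 0.65 CPM in WT, at 0.0612, 0.852 and 0.759 in Fshb(+/-), and at 1.93, 1.67, 0.579 and 0.722 in HFSHB. The stage libraries ranged from 0.0628 CPM in E to 1 CPM in PE, with group means of 0.693 ± 0.155 in DE, 0.607 ± 0.447 in PE and 0.229 ± 0.143 CPM in E (SD, n = 4 each). The ratio of knockout to the compared group was 14.1 (9.92 to 20.8) against WT and 6.95 (5.66 to 8.6) against HFSHB. In experiment 3 it was 42.4 (33.6 to 54.3) against all stage libraries. The HFSHB group held the highest Eppin level of any group not labelled knockout, 1.22 ± 0.674 CPM, and its lowest knockout library was 3.69 times its highest HFSHB library.

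9230104L09Rik, the cystatin-domain gene, stood at 4.68, 5 and 4.22 CPM in Fshb(-/-) of experiment 1 and at 7.18, 10.3, 6.76 and 7.44 CPM in Fshb(-/-) of experiment 2. In KO (anestrus) it stood at 9.28, 8.54, 28.8 and 5.69 CPM, so that replicate 3 stood well above the other replicates. The same library was also the highest KO (anestrus) library for Svs5, Svs6 and Klk1b24, but not for Eppin. In other groups the gene stood at 0.0599, 0.185 and 0.0591 CPM in WT, at 0.122, 0.59 and 0.127 in Fshb(+/-), and at 0.33, 0.225, 0.0964 and 0.0482 in HFSHB. The 12 stage libraries held 1 to 17 counts, or 0.0919 to 1.28 CPM. Ratios were 46 (19.4 to 143) against WT, 16.8 (9.64 to 32.1) against Fshb(+/-), 45.2 (27.2 to 81.2) against HFSHB and 24.2 (19.2 to 30.8) against the stage libraries.

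Klk1b24, the kallikrein, stood at 7.67, 2.01 and 5.93 CPM in Fshb(-/-) of experiment 1, at 8.81, 13.5, 7.65 and 13.3 CPM in Fshb(-/-) of experiment 2 and at 6.73, 3.99, 9.05 and 3.67 CPM in KO (anestrus). It was near 0 in the other groups of experiments 1 and 2, with 1 count in each WT library, 0, 0 and 4 counts in Fshb(+/-) and 1, 0, 0 and 2 counts in HFSHB. The ratio was 89.3 (30.2 to 436) against the 3 counts of WT and 307 (105 to 1491) against the 3 counts of HFSHB. The stage libraries differed from this. Klk1b24 stood there at 1.07, 1.84, 0.076 and 1.3 CPM in DE, at 2.28, 0.45, 1.42 and 0.496 in PE, and at 0, 0, 2.65 and 0 in E. The ratio of KO (anestrus) to all stage libraries was 6.04 (4.94 to 7.41), and the lowest KO (anestrus) library was only 1.38 times the highest stage library. Klk1b24 values are uncertain, since 58.4% of the 31-base words of its transcript also occur in 20 other genes, most of all in Klk1b21 (34.1%). Its estimated counts were not whole in the 3 Fshb(-/-) libraries of experiment 1, for example 27.284 in replicate 2. The Svs5 and Svs6 transcripts share 0.467% and 0.594% of their words with each other, and Eppin and 9230104L09Rik share none with another gene.

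**Figure D2:**
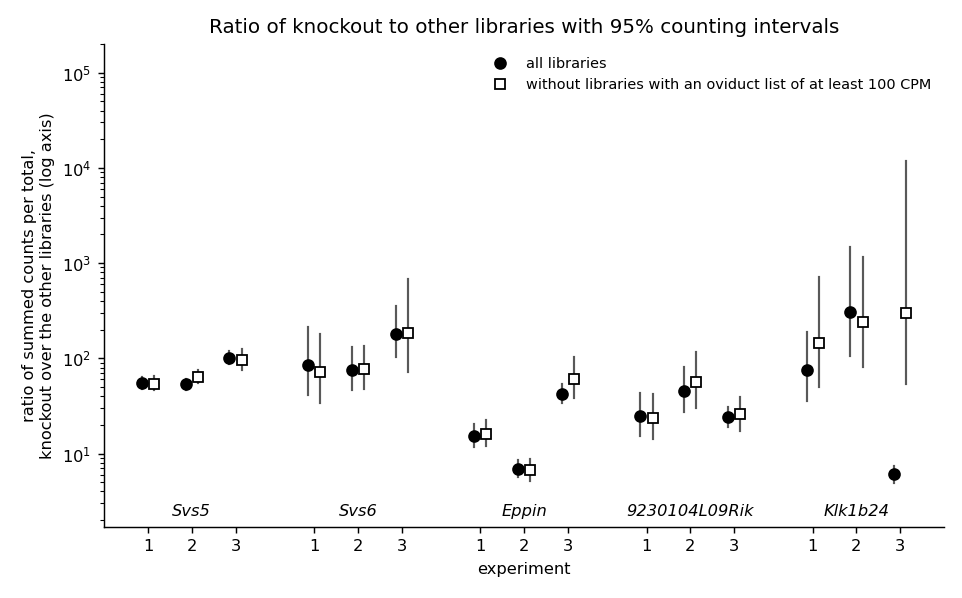
Ratio of summed counts per summed total, knockout libraries over the other libraries of the same experiment, on a log axis for each gene and experiment, with 95% exact counting intervals. Filled circles use all libraries and open squares leave out those with a summed oviduct list of at least 100 CPM. Klk1b24 moved most, in experiment 3 from 6.04 to 301, the latter against 1 count in 4 libraries, and in experiment 1 from 74.7 to 146.

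The stage libraries that held Klk1b24 were those that held oviduct transcripts. In the 8 stage libraries with an oviduct list of 3352 to 7653 CPM, Klk1b24 ranged from 0.45 to 2.65 CPM with a median of 1.36. In the 4 with 12.4 to 25.8 CPM it ranged from 0 to 0.076 CPM. The ranges of the other 4 genes overlapped between the 2 sets: Svs5 ranged from 0.375 to 1.87 CPM in the first set and from 0.276 to 2.28 CPM in the second, and Eppin from 0.15 to 1 and from 0.0628 to 0.912 CPM. The knockout libraries had Klk1b24 at 2.01 to 13.5 CPM with an oviduct list of 29.5 to 448 CPM. Without the libraries of at least 100 CPM on this list, a setting added after the data were seen, Klk1b24 in KO (anestrus) stood against 1 count in 4 stage libraries, a ratio of 301 (53.6 to 11915), and Eppin against 18 counts, a ratio of 61.1 (38.5 to 103). The ratios of Svs5 were 54.2 (45.9 to 64.4), 64.3 (55.6 to 74.7) and 96.5 (75 to 126) in the 3 experiments.

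**Figure D3:**
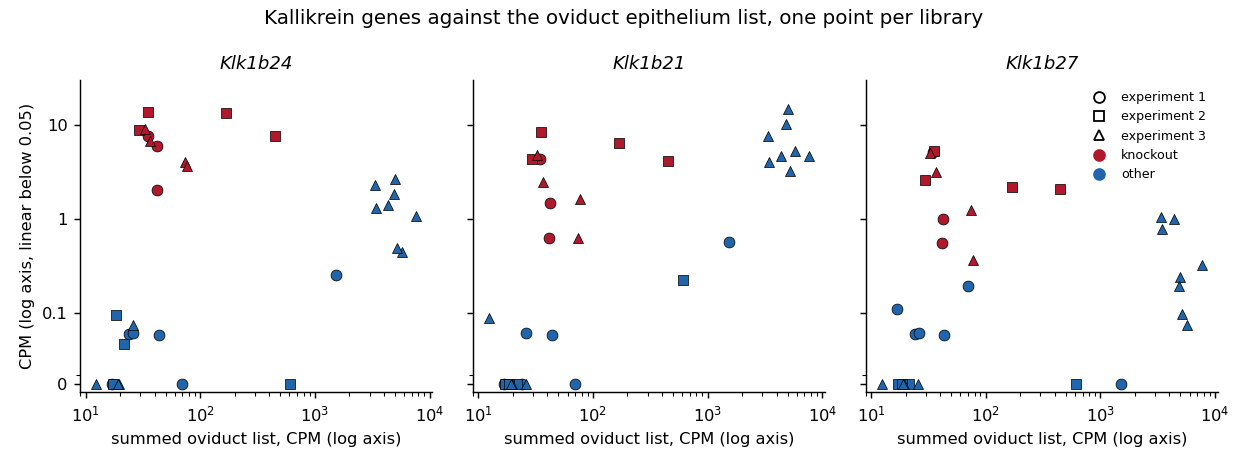
Level of Klk1b24, Klk1b21 and Klk1b27 (CPM, log axis that is linear below 0.05) against the summed level of 12 oviduct epithelium genes (CPM, log axis). Each point is a library, red for groups labelled knockout and blue for the others, with the marker shape giving the experiment. Knockout libraries have Klk1b24 at 2.01 CPM or more at low oviduct levels, and the blue Klk1b24 points above 0.4 CPM all lie at 3352 CPM or more of the oviduct list.

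Levels of different genes can be compared after division by exon length. Per kilobase, Svs5 was the highest in each knockout group, at 151 ± 23, 237 ± 75.6 and 177 ± 64.5 CPM per kb (SD, n = 3, 4 and 4) in experiments 1, 2 and 3. The other 4 genes lay between 5.15 and 28.4 CPM per kb. In experiment 1 the order of means was Svs5, Eppin (11.9 ± 2.5), Svs6 (11.6 ± 4.84), Klk1b24 (5.93 ± 3.3) and 9230104L09Rik (5.15 ± 0.435). Svs6 overlapped in range with both Eppin and Klk1b24 there, and Klk1b24 overlapped with 9230104L09Rik. In experiment 2 it was Svs5, Svs6 (28.4 ± 10.5), Klk1b24 (12.3 ± 3.45), Eppin (11 ± 2.02) and 9230104L09Rik (8.8 ± 1.81), and the ranges of the last 3 overlapped. In KO (anestrus) Eppin (27.3 ± 3.82), Svs6 (26.9 ± 5.81) and 9230104L09Rik (14.5 ± 11.8) overlapped, and 9230104L09Rik also overlapped Klk1b24 (6.68 ± 2.88). Svs5 stood apart from the rest in each of these groups, and the order of the rest changed between experiments.

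Comparisons that the choice of the genes did not use can be tested. Libraries labelled Fshb(+/-) were compared with those labelled WT by edgeR's quasi-likelihood test, adjusted by Benjamini-Hochberg over 17223 genes, of which 15 (0.0871%) passed. None of the 5 genes passed in Fshb(+/-) against WT, and none had an unadjusted p under 0.05 by edgeR or by DESeq2. Svs5 had a log2 fold change of -0.55 ± 0.47 (SE, adjusted p = 0.74) and 9230104L09Rik of 1.39 ± 0.72 (adjusted p = 0.55). Eppin (-0.26 ± 0.66, adjusted p = 0.93), Klk1b24 (0.44 ± 1.31, adjusted p = 0.94) and Svs6 (-2.15 ± 1.36, adjusted p = 0.64) did not pass either. The summed counts in Fshb(+/-) were 67 for Svs5, 26 for Eppin, 13 for 9230104L09Rik, 4 for Klk1b24 and 1 for Svs6, so a small difference was not detectable at this depth. Only Svs5 and Eppin also passed the filter on low counts when these 2 groups were fitted alone. Svs6, 9230104L09Rik and Klk1b24 were in the fit through the knockout group, and with 6, 5 and 3 counts in WT their tests say little.

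Between stages, edgeR called 0 of the 5 genes and 0 of 16944 genes (0%) in DE against PE, 0 (0%) in E against PE and 0 (0%) in DE against E. At an unadjusted p under 0.05 there were 407, 3170 and 1796 genes, and DESeq2 called 0, 363 and 10. Eppin alone among the members passed the unadjusted threshold, in both comparisons with E and by either tool. Its log2 fold change was -1.41 ± 0.54 in E against PE (SE, adjusted p = 0.22 by edgeR) and 1.61 ± 0.53 in DE against E (adjusted p = 0.44 by edgeR), and neither passed. Under DESeq2 the lowest adjusted p among the 5 was 0.12 in E against PE and 0.18 in DE against E. The remaining 4 genes had adjusted p from 0.55 to 0.94 in these comparisons, and all 5 had 1 in DE against PE. E replicate 3 held all 33 counts of Klk1b24 in its group and an oviduct list of 4993 CPM. Without it the 3 E libraries that remain had 0 counts, and nothing is read from the fit of Klk1b24 there. When only the groups compared were fitted, Svs5 passed the filter on low counts in all 3 comparisons, Klk1b24 in the 2 with DE, and Svs6, Eppin and 9230104L09Rik in none. These last 3 genes were in the fit through the KO (anestrus) group, so their tests between stages say little. Eppin had 11 counts in sum in E, 29 in PE and 36 in DE, and nothing is read from its unadjusted p.

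The genes next to Svs5, Svs6 and Eppin were examined to see how far the pattern reached along chromosome 2. Between Svs5 and Eppin lie 12 protein-coding genes, of which 4 stayed under 1 CPM in every group. Of the 12, 1, Wfdc6a, was higher in all knockout libraries of all 3 experiments. No share over all genes was worked out for a separation in all 3 experiments at once, so nothing is read from this count. Wfdc6a, a WFDC protease inhibitor gene 2.9 kb from Eppin, averaged 5.31 ± 0.954 CPM in Fshb(-/-) and 0.964 ± 0.229 in WT (SD, n = 3). It averaged 4.78 ± 0.888 in Fshb(-/-) against 0.823 ± 0.27 in HFSHB, and 7.43 ± 1.14 in KO (anestrus) against 1.3 to 1.87 CPM in the stage groups. On the other side of Eppin, Wfdc8 (1.79 CPM in Fshb(-/-), 0.24 in WT) did not overlap in experiments 1 and 3, and Wfdc6b (3.56 CPM in KO (anestrus), 0.108 to 0.584 in the stage groups) was without overlap in all 3. Next to Svs5, Slpi, the secretory leukocyte protease inhibitor, was higher in every knockout library only in experiment 2 (2.7 against 0.27 CPM). So was Wfdc2, a WFDC gene near Eppin (2.54 against 0.367 CPM), which in experiment 3 averaged 4.31 CPM in KO (anestrus) and 15.4 to 29.7 CPM in the stage groups. Sdc4, a cell-surface proteoglycan gene between them, separated in experiments 2 and 3, at 203 against 160 CPM and at 220 against 146 to 174 CPM. Sys1 and Pigt, also in the interval, separated in none: Sys1 averaged 26.5 CPM in Fshb(-/-) and 25.8 in WT, and Pigt 171 and 160 CPM. Beyond Svs6, its direct neighbour Svs3a held 6, 20 and 3 counts in the 3 knockout groups. Svs3a held 1 count in WT, 6 in HFSHB and 3 in E, and separated in experiment 1 only. Svs3b, further out, held 6, 29 and 5 counts in the knockout groups and 0 in the others, and separated in experiment 2 only. Svs3b, Slpi, Wfdc2, Sdc4, Sys1 and Pigt were picked from the region after their values were seen, Slpi as the direct neighbour of Svs5.

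**Figure D4:**
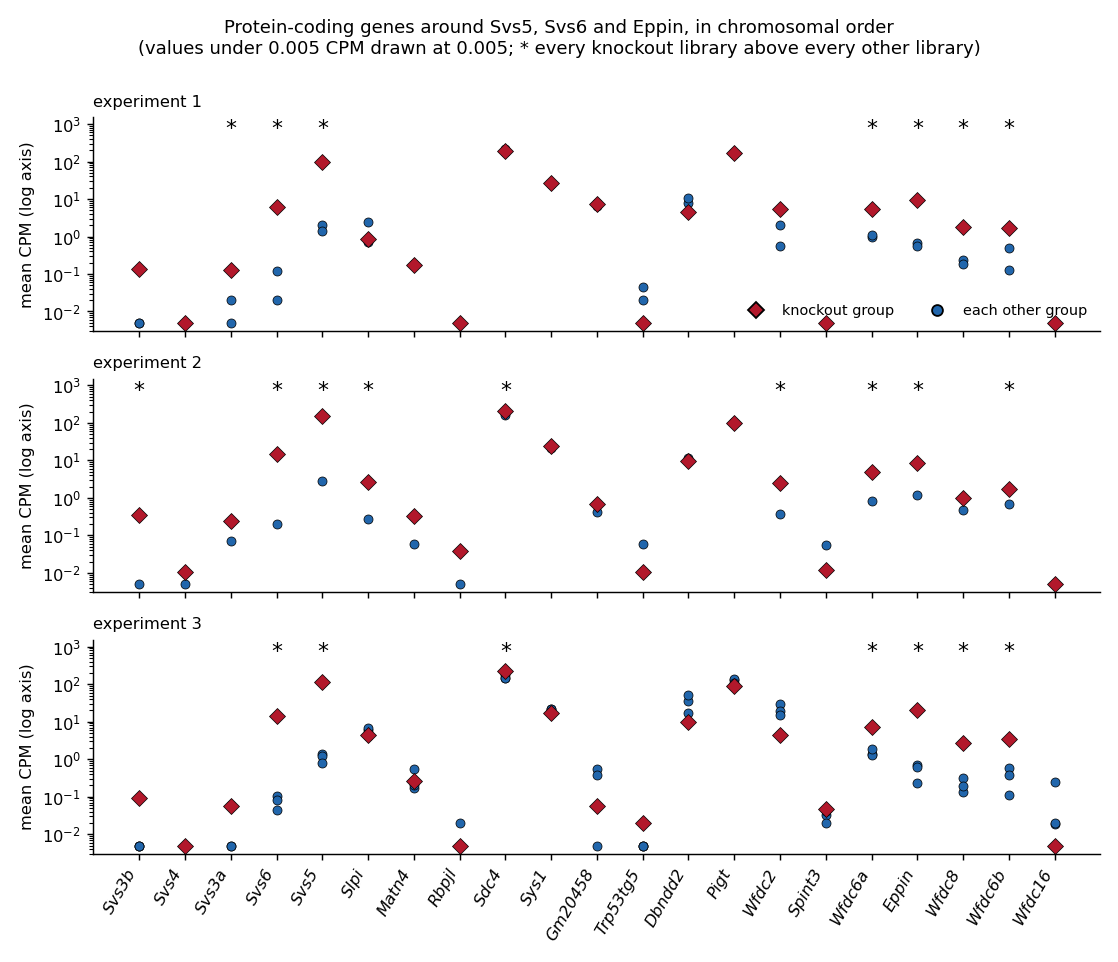
Mean CPM (log axis) of the protein-coding genes from Svs3b to Wfdc16 in chromosomal order, for experiments 1, 2 and 3. Red diamonds are the knockout group and blue circles each other group; an asterisk marks genes for which every knockout library was above every other library, and means under 0.005 CPM are drawn at 0.005. Svs6, Svs5, Wfdc6a, Eppin and Wfdc6b carry an asterisk in all 3 experiments.

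The rest of the seminal vesicle list was almost silent. Of 13 further genes of the list in the table, including Svs1, Svs2, Svs3a, Svs3b, Svs4, Sva, Pbsn and Msmb, all 13 stayed under 1 CPM in every group, and 0 reached the filter for edgeR's test in any experiment. DESeq2, which gave a test for 8 of them, called 0, 2 and 0 in the 3 knockout contrasts. Over all genes with an adjusted p, DESeq2 called 2358 of 17949, 5972 of 20615 and 6986 of 21513 in these contrasts. Svs2, which encodes the main clotting protein of mouse semen, averaged 0.0203 CPM in Fshb(-/-) of experiment 1 and 0 in the other groups. The only further gene of the list to separate in all 3 experiments was Pate4, a small cysteine-rich secreted protein of the seminal vesicle, which was singled out after its values were seen. It held 15 counts in Fshb(-/-) of experiment 1, 68 in Fshb(-/-) of experiment 2 and 18 in KO (anestrus), with at least 0.15 CPM in each of the 11 libraries, and 0 counts in all 22 other libraries. Of 24 epididymis genes, 20 stayed under 1 CPM in every group. Their summed level was 1.99 to 2.89 CPM in Fshb(-/-) and 0.927 to 1.33 in WT, 1.88 to 3.57 against 0.565 to 1.62 in HFSHB, and 1.55 to 4.91 in KO (anestrus) against 1.57 to 35.2 in the stage libraries. The defining genes Lcn5 and Gpx5 were at 0 throughout. With edgeR 1, 0 and 3 of the list were tested in the 3 experiments, and only Adam28 passed. Adam28 averaged 0.14 CPM in KO (anestrus) and 5.69, 5.94 and 3.48 CPM in DE, PE and E (adjusted p = 0.019 by edgeR), a call that ended without KO (anestrus) replicate 1 or 3 (adjusted p up to 0.06). The part of the oviduct transcripts of the stage libraries in this fall was not tested. In Fshb(-/-) against WT 0 passed at an unadjusted p under 0.05 by edgeR and 1 by DESeq2. DESeq2 called 0 of 16 there, 2 of 12 against HFSHB and 3 of 14 in experiment 3, beside its counts over all genes given above.

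Families of the members were tested gene by gene, with the members themselves left out and adjustment over all genes. The background of edgeR calls was 4.53% higher and 3.34% lower in Fshb(-/-) against WT, 16.2% and 15.8% in Fshb(-/-) against HFSHB, and 18.4% and 18.1% in KO (anestrus) against the mean of the stages. Of the WFDC and Kunitz inhibitors tested, 3 of 12 rose and 0 fell against WT, 7 of 12 rose and 0 fell against HFSHB, and 4 of 13 rose and 2 fell in experiment 3. The list's median log2 fold change was 1.18, 1.10 and -0.28, against -0.007, -0.001 and -0.014 over all genes tested. In experiment 3, 8 stage libraries held 3352 to 7653 CPM of the oviduct list, and the KO (anestrus) libraries at most 76.8 CPM. The part of oviduct tissue in the falls of experiment 3, in this and other lists, was not tested. The genes that rose against WT were Wfdc6a (2.43 ± 0.33, adjusted p = 0.0042), Wfdc8 (2.85 ± 0.47, adjusted p = 0.0099) and Wfdc10 (1.80 ± 0.24, adjusted p = 0.004). Wfdc10, also a WFDC gene, averaged 26.2 ± 3.8 CPM in Fshb(-/-) and 7.41 ± 1.88 CPM in WT (SD, n = 3). Wfdc6a, Wfdc8 and Wfdc10 rose again in experiment 3, by 2.32 ± 0.38, 3.73 ± 0.50 and 2.25 ± 0.30, together with Wfdc6b (3.63 ± 0.56, adjusted p = 0.00036). In experiment 2 Wfdc6a rose by 2.51 ± 0.26 and Wfdc10 by 1.17 ± 0.15, whereas Wfdc8 did not pass (0.978 against 0.474 CPM, adjusted p = 0.065). The 2 that fell in experiment 3 were Spint1 and Wfdc17, and the call for Spint1 was lost under 9 other settings, including the loss of any 1 KO (anestrus) library (adjusted p up to 0.096 by edgeR).

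Among the cystatins, 1 of 5 rose against WT, 2 of 6 against HFSHB and 2 of 6 in experiment 3, and 0 fell. Their median log2 fold changes were 0.11, 0.47 and -0.08. Cst3, which encodes the widely expressed cystatin C and lies 6.7 kb from 9230104L09Rik, rose in all 3: by 0.65 ± 0.11 (SE, adjusted p = 0.012), 0.94 ± 0.05 and 0.69 ± 0.13. The first of these calls ended without WT replicate 2 (adjusted p = 0.055). 8030411F24Rik, a further cystatin-family gene, rose by 3.34 ± 0.56 against HFSHB (0.789 against 0.0715 CPM) and by 4.09 ± 0.67 in experiment 3 (1.67 CPM in KO (anestrus), 0.0698 to 0.121 CPM in the stage groups). Cst9, the neighbour on the other side, averaged 1.9 CPM in KO (anestrus) and 0.107 to 0.173 CPM in the stage groups. The cystatins Cst8 and Cst12, known from the epididymis, were at 13.4 to 102 and 6.22 to 18.9 CPM in the 9 group means and passed in none of these 3 contrasts.

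Among the kallikreins, 22 of 26 stayed under 1 CPM in every group. Of those tested, 1 of 2 rose against WT, 2 of 3 rose against HFSHB, and in experiment 3, 1 of 6 rose and 4 fell (Klk1, Klk8, Klk11 and Klkb1). The call for Klk11 was lost without E replicate 3 or any 1 KO (anestrus) library (adjusted p up to 1), and that for Klkb1 without KO (anestrus) replicate 1, 2 or 3 (adjusted p up to 0.059). The median log2 fold changes were 1.99, 6.47 and -2.46. The part of the oviduct transcripts of the stage libraries in these falls and in the last median was not tested. The 2 genes that rose against HFSHB were Klk1b21 (6.47 ± 0.75, adjusted p = 0.00043) and Klk1b27 (9.01 ± 0.80, adjusted p = 0.00052), close relatives of Klk1b24. The only 1 of these to rise against WT was Klk1b21 (5.50 ± 1.40, adjusted p = 0.048), a call that ended when any 1 of the 6 libraries was left out (adjusted p up to 0.16). In experiment 3, Klk1b27 rose (3.40 ± 0.76, adjusted p = 0.0041), while Klk1b21 did not pass (-0.89 ± 1.22, adjusted p = 0.6). Klk1b21 stood at 0.63 to 4.73 CPM in KO (anestrus), at 3.27 to 14.6 CPM in the 8 stage libraries with oviduct transcripts and at 0 to 0.0885 CPM in the other 4. The ratio of Klk1b21 to Klk1b24 was 0.158 to 0.619 in the 11 knockout libraries and 3.07 to 11.7 in those 8 stage libraries, so the 2 genes stood in a different proportion there. Because these genes share sequence, the split of the estimated counts among them is uncertain. Klk1b3, next to Klk1b24, held 40, 52 and 21 counts in the 3 knockout groups and 4 counts in all other groups together.

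Androgen drives the male glands in which these genes are known, so genes of androgen synthesis and Leydig cells were listed too. Of 14, all tested in each experiment, 3 rose and 4 fell against WT, 4 rose and 8 fell against HFSHB, and 4 rose and 5 fell in experiment 3. The list's medians were -0.62, -1.05 and -0.51. Since the list also holds Cyp19a1, Hsd17b1, Akr1c18 and Lhcgr, its counts and medians are no measure of androgen synthesis. Hsd17b3, which encodes the enzyme that makes testosterone from androstenedione in the testis, averaged 9.22 ± 2.93 CPM in Fshb(-/-) and 0.281 ± 0.0681 in WT (SD, n = 3). It averaged 38.4 ± 24.4 CPM against 0.316 ± 0.122 in experiment 2, and 25.4 ± 20.7 CPM in KO (anestrus) against 0.298 to 0.673 in the stage groups. Its log2 fold changes were 4.98 ± 0.56 (SE, adjusted p = 0.0021), 6.86 ± 0.71 (adjusted p = 0.00049) and 5.92 ± 0.53 (adjusted p = 3.6e-06). Insl3, a hormone of Leydig and theca cells, rose by 4.15 ± 0.62, 6.03 ± 0.48 and 5.40 ± 0.55, and Hsd3b6, a steroid dehydrogenase of Leydig cells, by 3.51 ± 0.41, 3.02 ± 0.45 and 2.32 ± 0.43. Both separated without overlap in all 3 experiments. Cyp17a1, also of the list, averaged 1079 CPM in Fshb(-/-) and 531 CPM in WT and did not pass there. It rose against HFSHB (1086 against 241 CPM) and in experiment 3 (871 CPM in KO (anestrus), 9.69 to 290 CPM in the stage groups). Cyp19a1, the aromatase that turns androgens into estrogens, fell, with log2 fold changes of -3.69 ± 0.43, -5.26 ± 0.41 and -3.52 ± 0.77, and so did Hsd3b1, with -1.69 ± 0.21, -1.54 ± 0.24 and -1.17 ± 0.20. Cyp11a1, the enzyme that starts steroid synthesis, fell in each, with -1.43 ± 0.34 against WT (adjusted p = 0.038), -1.93 ± 0.25 against HFSHB and -1.33 ± 0.30 in experiment 3. The first of these 3 calls was lost without any single Fshb(-/-) library or without WT replicate 1 or 2 (adjusted p up to 0.14).

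Genes known to respond to androgen in other tissues did not move as a block. Against WT, edgeR called 0 of 11, with 4 at an unadjusted p under 0.05. DESeq2 called 2 of 14 there, beside 2358 of 17949 over all genes. Against HFSHB, 2 of 12 rose and 4 fell, and in experiment 3, 2 of 12 rose and 3 fell. The medians were -0.18, -0.04 and -0.14. Tsc22d3, induced by glucocorticoids and androgens, rose by 0.39 ± 0.08 and 0.92 ± 0.16 in experiments 2 and 3. Sgk1, a glucocorticoid-induced kinase gene, fell there, with -3.31 ± 0.44 and -2.92 ± 0.36. The calls for Tsc22d3 and Sgk1 were kept with each library left out. Some other falls of the list in experiments 2 and 3 were lost with a single library left out.

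Markers of other cell types moved with the knockout groups. Of the Sertoli cell markers, genes of the supporting cells of the testis of which 11 of 14 were also expressed highly enough here to be tested, 3 rose and 1 fell against WT, 5 rose and 1 fell against HFSHB, and 7 rose and 0 fell in experiment 3. The gene that fell in both was Dhh, whose call against WT was lost when either group gave up a library (adjusted p up to 0.15). The summed list ranged from 1186 to 1263 CPM in Fshb(-/-) against 303 to 437 in WT, from 710 to 1135 against 210 to 370 in HFSHB, and from 604 to 1075 in KO (anestrus) against 117 to 241 in the stage libraries. Cldn11, a tight-junction gene, rose by 2.15 ± 0.13, 2.11 ± 0.16 and 3.68 ± 0.14, and Aard by 2.30 ± 0.25, 2.04 ± 0.26 and 3.17 ± 0.24. Amh, which granulosa cells also express, rose by 1.88 ± 0.23, 1.56 ± 0.23 and 2.13 ± 0.23. Sox9, the defining Sertoli factor, passed in none of the 3 contrasts (-0.40 ± 0.38, 0.03 ± 0.35 and -0.98 ± 0.42), and Dmrt1 averaged at most 0.636 CPM in any group. Dmrt1, a testis transcription factor, was higher in every knockout library than in the others of experiments 2 and 3, with means of 0.323 against 0.0359 CPM and of 0.636 against 0 to 0.0248 CPM. Sox8, a relative of Sox9, separated in all 3 experiments: it did not pass against WT (0.68 ± 0.26, adjusted p = 0.15) and rose by 1.16 ± 0.21 and 2.62 ± 0.15 in experiments 2 and 3. Ptgds, a prostaglandin D synthase, did not pass against WT either (1.90 ± 0.88, adjusted p = 0.23) and rose by 4.04 ± 0.62 and 4.45 ± 0.50, from 12.3 to 210 CPM in experiment 2 and to 107 CPM in KO (anestrus), against 3.35 to 6.46 in the stage groups. Whether these cells bear on the levels of the 5 genes was not tested.

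Oocyte markers rose in 5, 7 and 7 of 7 genes, and their sum was 461 to 579 CPM in Fshb(-/-) against 235 to 299 in WT, 453 to 717 against 207 to 324 in HFSHB, and 591 to 682 in KO (anestrus) against 89.4 to 394 in the stage libraries. Against WT, the calls for Gdf9 and Zp1 were lost whichever of the 6 libraries was left out (adjusted p up to 0.12 and 0.13), that for Zp3 without any 1 of 4 libraries (up to 0.079) and that for Bmp15 without Fshb(-/-) replicate 3 (0.051). Bmp15 was also lost against HFSHB without HFSHB replicate 3 (adjusted p = 0.053). Zp2, a zona pellucida gene, rose by 1.03 ± 0.17, 1.17 ± 0.18 and 1.54 ± 0.23. Luteal markers fell in 0, 5 and 3 of 5 genes, with 4 at an unadjusted p under 0.05 against WT by edgeR and 3 called by DESeq2. Their sum was 708 to 1133 CPM in Fshb(-/-) against 856 to 6057 in WT, 643 to 972 against 2329 to 7356 in HFSHB, and 573 to 775 in KO (anestrus) against 478 to 5977 in the stage libraries. Theca markers rose in 1, 3 and 3 of 5 genes (Insl3 in each, with Cyp17a1 and Ptch1 in experiments 2 and 3), and Lhcgr fell against HFSHB. The Lhcgr call was lost without any 1 Fshb(-/-) library or HFSHB replicate 3 or 4 (adjusted p up to 0.096 by edgeR). So was the call for Prlr, a luteal marker, against HFSHB (adjusted p up to 0.065 by edgeR). Granulosa markers rose in 1, 1 and 2 of 7 (Amh in each, and Fshr in experiment 3) and fell in 1, 3 and 1 (Cyp19a1 in each, with Hsd17b1 and Nr5a2 against HFSHB). Their sum was 3887 to 4656 CPM in Fshb(-/-) and 3214 to 4315 in WT. The Fshr call was lost without any 1 KO (anestrus) library or E replicate 1 or 4 (adjusted p up to 0.095 by edgeR). The part of these shifts in the levels of the 5 genes was not tested.

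Epithelia next to the ovary were listed for the same reason. Of the duct and rete epithelium list, 1 of 11 rose against WT (Emx2, 0.80 ± 0.15, adjusted p = 0.014, lost without any 1 of 3 libraries, namely Fshb(-/-) replicate 1 or WT replicates 1 or 2, with adjusted p up to 0.062), 8 of 10 rose against HFSHB and 0 of 12 rose and 8 fell in experiment 3. Of the 8 calls against HFSHB, 5 (Cldn3, Krt7, Krt8, Krt18 and Krt19) were lost with some single library left out, with adjusted p up to 0.11. Of the 8 in experiment 3, Cdh1, Krt18, Pax2 and Pax8 were lost without any 1 KO (anestrus) library and Epcam and Cdh16 without KO (anestrus) replicate 1, with adjusted p up to 0.097. The sum of the duct and rete list was 196 to 314 CPM in Fshb(-/-) against 162 to 279 in WT. In experiment 2 it was 240 to 306 CPM against 99.8 to 223 in HFSHB. In KO (anestrus) it was 182 to 199 CPM, against 141 to 1122 in the stage libraries. The part of oviduct tissue in the falls of experiment 3 was not tested. Of the oviduct list, edgeR called 0 of 9 against WT and 0 of 9 against HFSHB, with 0 at an unadjusted p under 0.05 and 0 by DESeq2 in both, and 11 of 12 fell in experiment 3. Of these 11, only Tekt1 and Rsph1 kept the call with each library left out. The calls for the other 9 (Ccdc113, Cdhr4, Dnah5, Dynlrb2, Fam183b, Foxj1, Ovgp1, Pax8 and Sntn) were each lost without any 1 KO (anestrus) library, with adjusted p up to 0.41 for Dynlrb2. Of the uterus list, 0 of 3 passed against WT and 0 of 3 against HFSHB, and Foxa2 and Ltf fell in experiment 3. The Foxa2 call was lost without KO (anestrus) replicate 1 or 3 or E replicate 3, and the Ltf call without KO (anestrus) replicate 1, 2 or 3. In experiment 2, Svs5 stood at 106 and 120 CPM in the 2 knockout libraries with an oviduct sum of 448 and 169 CPM, and at 211 and 176 CPM in those with 29.5 and 35.2 CPM. Eppin stood the other way round there, at 9.6 and 10.2 against 7.13 and 7.34 CPM. The part of oviduct tissue in these differences was not tested. Of 13 genes of the mitochondrial genome, edgeR called 0 against WT (1 at an unadjusted p under 0.05, and 1 called by DESeq2), 2 against HFSHB, namely mt-Atp6 (-0.18 ± 0.05) and mt-Nd3 (-0.42 ± 0.12), and 0 in experiment 3, where 0 passed at an unadjusted p under 0.05 and DESeq2 called 0. Both calls of experiment 2 were each lost when any single 1 of 5 libraries was left out (adjusted p up to 0.088).

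Genes with the pattern most like that of the members were found by Pearson's r with the mean member profile, over all 33 libraries after centring each experiment, among 14878 genes. The 8 most alike were L3mbtl4 (r = 0.988), Slc29a1 (0.974), Add3 (0.973), Actn3 (0.972), Wipf3 (0.971), C7 (0.970), Myoz1 (0.969) and Slc24a2 (0.969). The libraries share their groups, so r mostly records the knockout contrast. L3mbtl4 averaged 8.45 CPM in Fshb(-/-) and 0.12 in WT, 12.1 against 0.283 in HFSHB, and 11.6 in KO (anestrus) against 0.201 to 0.352 in the stage groups. C7, a complement component, averaged 89.5 against 10.5, 200 against 14.4, and 183 against 13.5 to 19.8 CPM. In all 8 every knockout library was above every other library of its experiment. Of the 8, 5 stayed among the 8 most alike without centring, and 5 with a pseudocount of 0.1 in place of 1 CPM. Ranked in the same way among 17438 genes, Svs5 came 1st, Svs6 3rd, 9230104L09Rik 4th, Eppin 19th and Klk1b24 80th, a description only since each is part of the profile. Each member was also set against the mean of the other 4. Within the 11 knockout libraries, r was 0.58 for Svs5, 0.20 for Svs6 and -0.34 for Eppin. It was 0.71 for 9230104L09Rik and 0.49 for Klk1b24. Within the 22 other libraries r ran from -0.08 (9230104L09Rik) to 0.44 (Svs5).

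**Figure D5:**
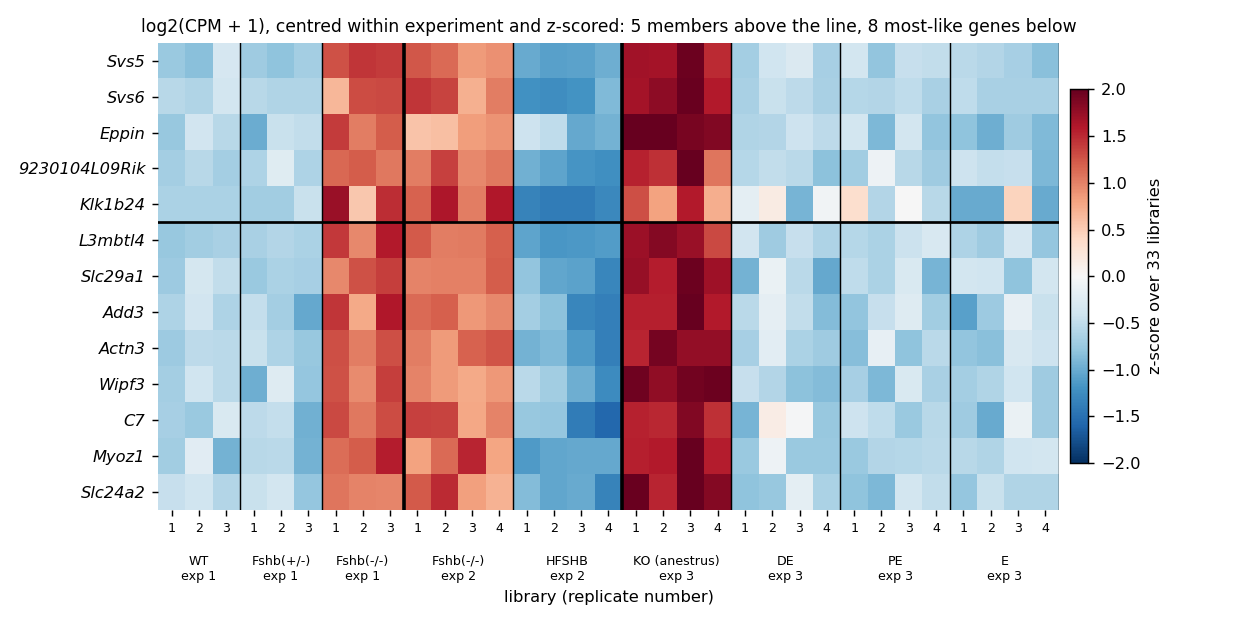
Values of log2(CPM + 1), centred within each experiment and z-scored over 33 libraries, for the 5 members (above the line) and the 8 genes most like them (below). Columns are libraries by group and colour runs from blue (low) to red (high). All 13 rows are red in the 3 groups labelled knockout, and Klk1b24 reaches z-scores of 0.45 and 0.33 in E replicate 3 and PE replicate 1.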

How the data were processed

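RNA-seq was measured in 33 mouse ovary libraries. The authors deposited estimated counts per gene, made with Salmon on build GRCm38 per the submitters' processing notes, which also name DESeq2. No tool version is given there. Between 10.5 and 20.1% of a library's values were not whole, and counts were rounded before tests. No column was left unused.

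Groups come from the labels. For each experiment, edgeR 4.0.16 (R 4.3.3, limma 3.58.1) was fitted to all its groups with its default filter on low counts, trimmed-mean scaling and the robust quasi-likelihood test, with Benjamini-Hochberg adjustment over all genes and a threshold of 0.05. The fit was tested on simulated data. DESeq2 1.42.0, other scaling, no filter, only the groups compared, a replicate block and each library left out were alternatives. Levels are CPM of the library total. Ratios of summed counts carry 95% exact counting intervals (scipy 1.17.1). Gene names and windows come from GENCODE and RefSeq tables. The table's identifiers matched with their version for 53307 of 54347 genes. Alignments used Biopython 1.88.

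The 5 genes and all lists were chosen with earlier results of these data known. The text names the members, Fshb, the 8 genes most like the members, direct neighbours, and up to 6 genes of each list with the smallest p against WT among those with at least 1 CPM in a group or called. Further names were picked after their values were seen, and are those of genes behind small counts of calls. The result for 1 gene of the androgen-responsive list is not reported here.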

Additional observations from a re-analysis of the deposited data

Results flagged for a closer look

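In groups of 4 libraries, the highest or lowest value was compared with the rest. For normally distributed values, chance alone flags about 1 in 20 groups under this rule. That rate does not hold for small counts, since 1 library above 0 beside others at 0 is always flagged. The rule picked 5 of 30 pairs of a gene and a group, and nothing is read from that number. Svs6 stood at 0.578 CPM in HFSHB replicate 4, against 0.045 to 0.0964 CPM in the other HFSHB libraries. Svs6 also stood at 0.177 CPM in E replicate 1 and at 0 in the other E libraries, a difference of 2 counts. 9230104L09Rik stood at 28.8 CPM in KO (anestrus) replicate 3, against 5.69 to 9.28 CPM in the other replicates. It stood at 0.0919 CPM in E replicate 4, against 0.628 to 0.708 CPM in the other E libraries. Klk1b24 stood at 2.65 CPM in E replicate 3 and at 0 in the other E libraries, and that library had an oviduct list of 4993 CPM, against 12.4 to 19.5 CPM in the other 3.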

How the results depend on the processing

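All 15 of 15 gene and experiment pairs kept every knockout library above every other under trimmed-mean scaling. Leaving out libraries cannot create an overlap and was not counted. Leaving out the libraries rich in oviduct transcripts moved the ratio of Svs5 in experiment 2 to 64.3, of Eppin in experiment 3 to 61.1 and of Klk1b24 in experiment 3 to 301. The number of genes called by edgeR in Fshb(-/-) against WT was 1355, against 2358 by DESeq2 and 456 to 1031 with a library left out. Against Fshb(+/-) it was 2928, and 1362 to 2581 with a library left out. In Fshb(+/-) against WT it was 15, against 353 by DESeq2 and 9 to 14 with a library left out. In KO (anestrus) against the stages it was 6180, and 3924 to 7057. In E against PE it was 0, against 363 by DESeq2 and 0 to 1847, the highest without E replicate 3. In DE against E it was 0, against 10 by DESeq2 and 0 to 1039, again the highest without E replicate 3.

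Of the members' log2 fold changes that missed the threshold, 10 changed sign with some library left out and the other 10 did not. In Fshb(+/-) against WT they ran from -0.89 to 0.25 for Svs5, -0.68 to 0.28 for Eppin and -3.12 to 1.01 for Klk1b24. In DE against PE they ran from -0.16 to 0.47 for Svs5, -0.54 to 0.90 for Svs6, -0.13 to 0.53 for Eppin, -0.63 to 0.28 for 9230104L09Rik and -0.50 to 0.47 for Klk1b24. For 9230104L09Rik they ran from -0.43 to 0.48 in E against PE and from -0.51 to 0.04 in DE against E. The cause was not tested.

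Replicate numbers were not used to pair the libraries. Deviations from group means were correlated between same-numbered libraries of different groups. These correlations ran from -0.0714 to 0.0863 in experiment 1, from -0.139 to 0.141 in experiment 2 and from -0.752 to 0.229 in experiment 3. In experiment 3, 6 of 24 such pairs were above 0.1. Pairs with different numbers are not given beside them, so whether the numbers pair libraries is not settled. With a replicate block, 911 genes were called against WT, 2232 against Fshb(+/-), 4313 against HFSHB, 5159 in KO (anestrus) and 7 in Fshb(+/-) against WT, and Klk1b24 in DE against PE moved from -0.10 to 0.42. Genes with a few counts per library, as Svs6 and Klk1b24 outside the knockout groups, are limited by depth.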
